A study of Mus musculus with 12 samples.

Results

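The genes described here are 10 ligands and receptors of blood vessel growth: the vascular endothelial growth factors Vegfa, Vegfb and Vegfc, the receptors Kdr and Flt1, the angiopoietins Angpt1 and Angpt2 with their receptor Tek, and apelin (Apln) with its receptor Aplnr. They were taken by name from the probe set annotation, and 10 of 10 were found among 19938 genes, each on a single probe set of its own. The tissue was ventricle from male C57BL/6 mice on Affymetrix whole-transcript arrays, with n = 2 arrays in each of 6 groups. In the clipped groups a haemoclip narrowed the pulmonary artery (PAC), and the right ventricle (RV) was taken 1 week later at 13 weeks of age, 3 weeks later at 15 weeks, or 6 weeks later at 18 weeks. Sham RV came from mice 3 weeks after a sham operation, aged 15 weeks. In the constricted group a clip narrowed the aorta (TAC), and the left ventricle (LV) was taken at 3 weeks and 15 weeks of age, as was sham LV. Hearts were flushed with buffer and the septum was cut away. The labels do not say whether 2 arrays of a group were separate animals or whether both shams shared hearts, so p-values measure the spread between arrays, which may be technical.

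VEGF ligands act on receptor tyrosine kinases of the endothelium. Vegfa drives vessel sprouting and permeability mainly through Kdr, Flt1 binds Vegfa and Vegfb and also acts as a decoy, and Vegfc acts chiefly on lymphatic vessels through Flt4. Angpt1 keeps vessels stable through Tek, and Angpt2, which endothelial cells store and release, opposes it in many settings. Apelin is a peptide that relaxes vessels and strengthens contraction through Aplnr, a G protein-coupled receptor of endothelial cells. In the heart, muscle cells are a main source of Vegfa and Vegfb.

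Levels are log2 values from the authors' table, changes are log2 differences ± the limma standard error, and a gene passed at a limma p of 0.05 after Benjamini-Hochberg adjustment over all 19938 genes. The PAC comparisons share the same sham RV arrays, so they are not independent of each other. The muscle genes Myh6 and Tnnt2 and the endothelial genes Pecam1 and Cdh5 were high on all arrays (13.67 to 13.85 and 9.99 to 10.74). The atrial gene Bmp10 stood at 8.55 and 10.5 on the PAC 1 week arrays and at 8.79 on PAC 3 week array 2, against 4.28 to 4.79 on the other arrays. These 3 arrays also had the highest mean levels of 4 atrial markers (8.88, 10.23 and 9.3), with 8.53 on sham LV array 2 and 5.86 to 7.83 on the rest. Mmrn1, a lymphatic and platelet gene that is deleted in a known C57BL/6 substrain, was at 4.04 and 3.88 on the PAC 1 week arrays, against 7.08 to 7.96 on the 10 others. The labels give the strain as C57BL/6 without a substrain, so time after clipping and any such difference between mice cannot be told apart at 1 week. In bulk tissue, fewer cells of a type and less RNA per cell cannot be told apart.

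Clipping went with higher Aplnr, lower Angpt1 and lower Vegfb in the right ventricle, with a later increase of Kdr and an early increase of Apln. At 1 week 3 of 10 genes passed, Aplnr and Apln higher and Vegfb lower, where 18.4% of all genes passed (9.57% higher and 8.86% lower). With cyclic loess scaling 2174 of all genes passed there, 1363 of them higher, against 3675 and 1909 without it. The number fell further to 89 of all genes with only the arrays compared, 317 when PAC 1 week array 2 was left out and 227 when sham RV array 2 was. At 3 weeks 3 passed, Kdr higher and Angpt1 and Vegfb lower, where 5.76% of all genes did (3.22% higher and 2.54% lower). Without PAC 3 week array 2, the array with high Bmp10, the calls of Kdr, Angpt1 and Vegfb at 3 weeks all ended. Aplnr, which had not passed at 3 weeks, did so there, with a change of 0.99 from a single PAC 3 week array. At 6 weeks 3 passed, Aplnr higher and Angpt1 and Vegfb lower, where 9.25% did (5.52% higher and 3.73% lower). For the mean of the 3 PAC times 4 passed (Aplnr, Kdr, Angpt1 and Vegfb), where 24.8% did (12.2% higher and 12.6% lower). The median change of the 10 genes was 0.02 at 1 week, 0.23 at 3 weeks and 0.23 at 6 weeks, beside -0.05 for all genes at each time (-0.052, -0.049 and -0.051). The 9969 genes at or above the median level include 9 of the 10 members. Those genes had median changes of 0.076, 0.067 and 0.065. In a fit to those genes alone 2694, 1587 and 2437 of them passed at the 3 times, and 3, 4 and 5 of the members. The arrays did not overlap between PAC and sham RV for 6 members at 1 week (3 higher and 3 lower), 9 at 3 weeks (7 and 2) and 8 at 6 weeks (6 and 2). Of all genes, 26.4%, 25.5% and 26% lay wholly higher at these times and 36.7%, 35.7% and 35.8% wholly lower.

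**Figure D1:**
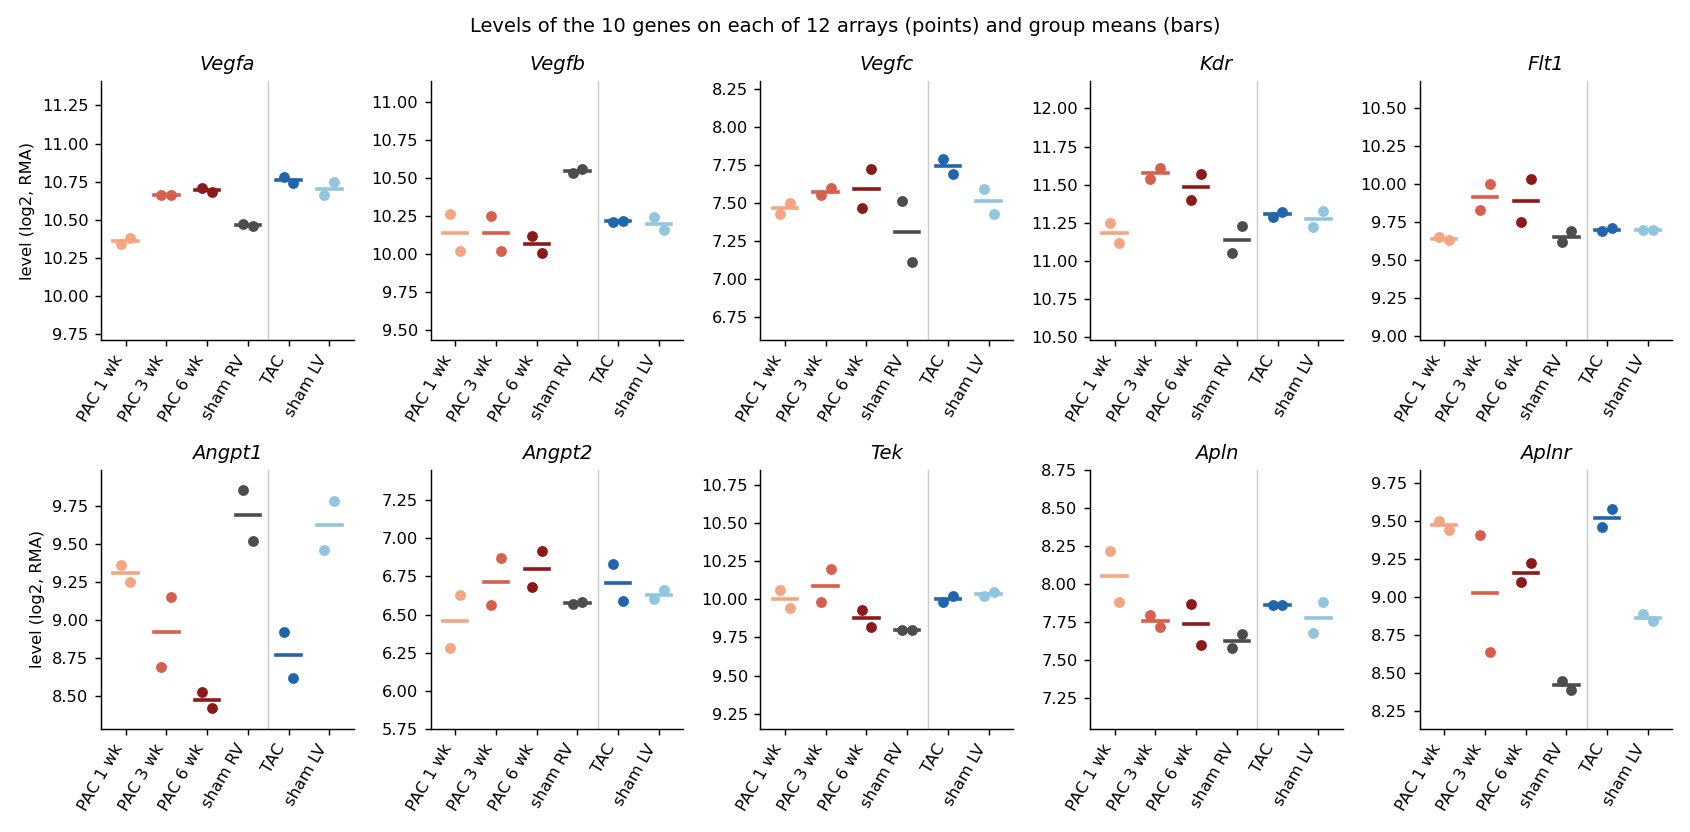
Level (log2) of each gene on the 12 arrays, with points for arrays, bars for the means of 2 arrays, the same span on every vertical axis, and a line between right and left ventricle. Vegfb of sham RV lies above all other arrays, Aplnr of sham RV below them, and Angpt1 is lower in PAC at 3 and 6 weeks and in TAC than in either sham group.

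**Figure D2:**
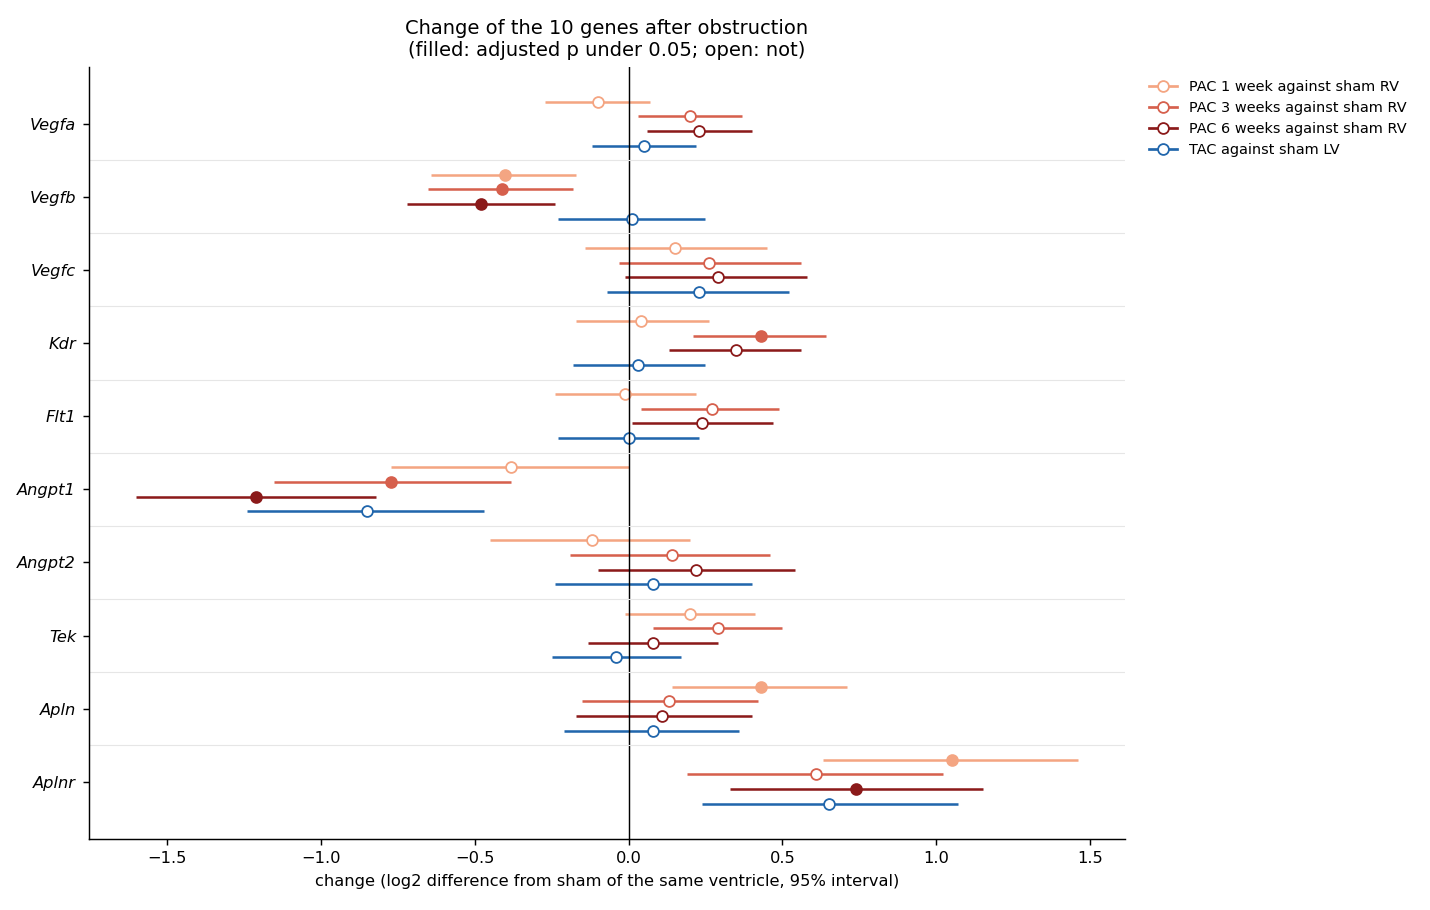
Change of each gene (log2 difference with its 95% interval from limma) in PAC at 1, 3 and 6 weeks against sham RV and in TAC against sham LV. Filled points passed the adjusted threshold, which none did in TAC, although Angpt1 (-0.85) and Aplnr (0.65) moved there by about as much as in PAC at 3 weeks (-0.77 and 0.61).

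Among the ligands, Vegfa differed little from sham and changed sign with time. Its level was 10.34 and 10.38 in PAC at 1 week, 10.66 and 10.66 at 3 weeks and 10.71 and 10.68 at 6 weeks, against 10.47 and 10.46 in sham RV. The clipped arrays thus lay below sham at 1 week and above it at 3 and 6 weeks, with no overlap at any time. Changes were -0.10 ± 0.08 (adjusted p = 0.34), 0.20 ± 0.08 (adjusted p = 0.12) and 0.23 ± 0.08 (adjusted p = 0.079), and none passed. The 6 week change passed without genes below the median level (adjusted p = 0.029) and with a trended and robust prior (0.035). Between clipped groups, PAC at 6 weeks exceeded PAC at 1 week by 0.33 ± 0.08 (unadjusted p = 0.0012, adjusted p = 0.14), and PAC at 3 weeks exceeded PAC at 1 week by 0.30 ± 0.08 (adjusted p = 0.28). The SD within groups was 0.034, the smallest of the 10 genes, beside 0.157 between group means. Left ventricles had 10.78 and 10.74 in TAC and 10.66 and 10.75 in sham LV, which overlapped (0.05 ± 0.08, interval -0.12 to 0.22). From high to low the group means ran TAC, PAC 6 weeks, sham LV, PAC 3 weeks, sham RV and PAC 1 week, and the neighbours between PAC 6 weeks and PAC 3 weeks overlapped.

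Vegfb, a VEGF that binds Flt1 and is abundant in heart muscle, fell at all 3 times. Its level was 10.26 and 10.02 in PAC at 1 week, 10.25 and 10.02 at 3 weeks and 10.12 and 10.01 at 6 weeks, against 10.53 and 10.56 in sham RV. Both sham RV arrays lay above the 10 other arrays of the series, the left ventricles among them (10.21 and 10.22 in TAC, 10.24 and 10.16 in sham LV). Changes were -0.40 ± 0.11 at 1 week (0.756-fold, adjusted p = 0.031), -0.41 ± 0.11 at 3 weeks (0.751-fold, adjusted p = 0.049) and -0.48 ± 0.11 at 6 weeks (0.717-fold, adjusted p = 0.026). The difference between the unobstructed chambers, sham RV less sham LV, was 0.34 ± 0.11 and did not pass (adjusted p = 0.13). Below sham RV the group means lay between 10.07 and 10.22 and each overlapped its neighbour in order, while both TAC and both sham LV arrays lay above both PAC 6 week arrays. Leaving out either sham RV array ended the call at 1 week (adjusted p = 0.086 and 0.12), at 3 weeks (0.12 and 0.18), at 6 weeks (0.081 and 0.12) and for the mean of the times (0.055 and 0.087). It also ended without PAC array 2 of the time concerned (0.19, 0.31 and 0.22), and at 3 weeks without any TAC (0.077), sham LV (0.068) or PAC 6 week array (0.054). With only the arrays compared it ended at 1 week (0.096) and 3 weeks (0.070).

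Vegfc, the lymphatic ligand, did not pass in any comparison. Its level was 7.43 and 7.5 in PAC at 1 week, 7.55 and 7.6 at 3 weeks and 7.47 and 7.72 at 6 weeks, against 7.51 and 7.11 in sham RV, whose own arrays differed widely (SD 0.28). Changes were 0.15 ± 0.13, 0.26 ± 0.13 and 0.29 ± 0.13, with adjusted p between 0.18 and 0.42. In the left ventricle it was 7.79 and 7.69 in TAC, against 7.59 and 7.43 in sham LV (0.23 ± 0.13, interval -0.07 to 0.52). All 5 neighbouring pairs of groups overlapped in its order of levels.

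Kdr, the main signalling receptor for Vegfa, rose at 3 weeks. Its level was 11.25 and 11.12 in PAC at 1 week, 11.54 and 11.61 at 3 weeks and 11.4 and 11.57 at 6 weeks, against 11.05 and 11.23 in sham RV. The 1 week arrays overlapped sham, and the 3 and 6 week arrays lay above sham and above both left ventricle groups (11.29 and 11.32 in TAC, 11.22 and 11.33 in sham LV). The change was 0.04 ± 0.10 at 1 week (interval -0.17 to 0.26), 0.43 ± 0.10 at 3 weeks (1.35-fold, adjusted p = 0.037) and 0.35 ± 0.10 at 6 weeks (1.27-fold, adjusted p = 0.052). At 6 weeks it passed with the replicate number as a block (adjusted p = 0.048), without either PAC 1 week array (0.043), without genes below the median level (0.023) and with a trended and robust prior (0.020). For the mean of the times it was 0.27 ± 0.08 (adjusted p = 0.033). At 3 weeks the call ended without either array of PAC 3 weeks (0.061 and 0.22), sham RV (0.12 and 0.11), TAC (0.061) or sham LV (0.052), with only the arrays compared (0.059) and with loess scaling (0.062). The mean was 0.18 without sham RV array 1 (adjusted p = 0.23), and its call also ended without sham RV array 2 (0.082), array 2 of PAC 3 weeks (0.065) or of PAC 6 weeks (0.066), or either TAC array (0.051), with only the arrays compared (0.068) and with loess scaling (0.074).

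Flt1, which binds Vegfa and Vegfb and in part is made as a soluble decoy, had a profile like that of Kdr but passed in no comparison. The array gives a single value for the gene, so its membrane and soluble forms were not told apart. Its level was 9.65 and 9.63 in PAC at 1 week, 9.83 and 10 at 3 weeks and 9.75 and 10.03 at 6 weeks, against 9.62 and 9.69 in sham RV. The 3 and 6 week arrays lay above those of the other groups, the left ventricles among them (9.69 and 9.71 in TAC, 9.7 and 9.7 in sham LV). Changes were -0.01 ± 0.10 (interval -0.24 to 0.22), 0.27 ± 0.10 (adjusted p = 0.12) and 0.24 ± 0.10 (adjusted p = 0.15). Over the 12 arrays Kdr and Flt1 had Pearson r = 0.91, the highest of the pairs among the 10 genes, while the next pair, Flt1 and Angpt2, had 0.67. These are descriptions over arrays that share groups, with no test.

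**Figure D3:**
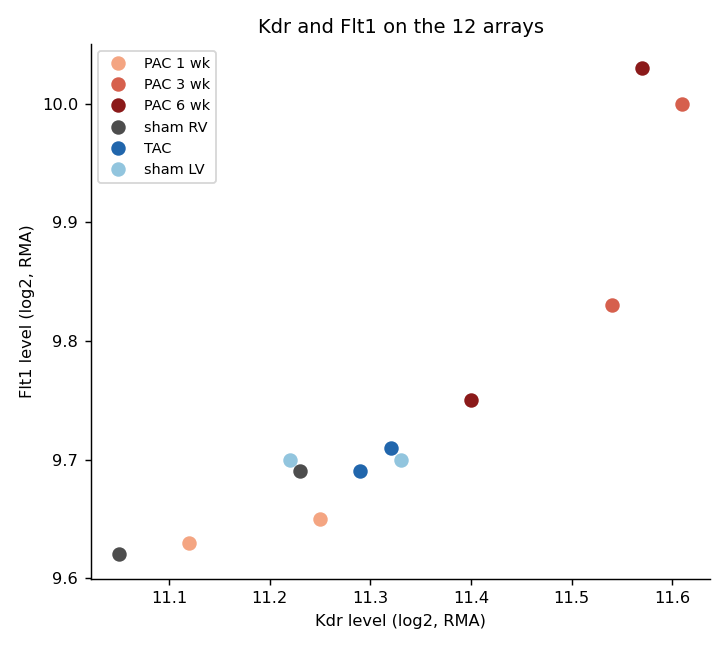
Level of Flt1 (log2, vertical) against Kdr (log2, horizontal) on each of the 12 arrays, coloured by group. The 4 arrays of PAC at 3 and 6 weeks hold the highest Flt1 values (9.75 to 10.03) and the highest Kdr values (11.4 to 11.61).

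The promoters of Kdr and Flt1 are shown because their levels were the most alike among the members, with that of Vegfb, which fell. The sequences are from RefSeq on GRCm38.p6, 250 bases before and 50 after a start site, 5′ to 3′ on the gene's strand. A window was listed for 7 of the 10 genes. Capitals mark the core letters of the hypoxia response element, bound by hypoxia-inducible factors, searched as ACGTG and GCGTG on both strands (CACGC is GCGTG on the other strand). The Kdr window is chr5:75978406-75978705, that of Flt1 chr5:147725962-147726261 and that of Vegfb chr19:6987602-6987901, all on the minus strand.
Kdr: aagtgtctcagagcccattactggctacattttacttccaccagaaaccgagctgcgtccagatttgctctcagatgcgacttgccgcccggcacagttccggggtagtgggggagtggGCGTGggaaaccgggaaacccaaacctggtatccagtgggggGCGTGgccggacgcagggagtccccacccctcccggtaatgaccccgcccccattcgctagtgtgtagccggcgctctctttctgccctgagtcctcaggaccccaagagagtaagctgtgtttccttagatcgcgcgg
Flt1: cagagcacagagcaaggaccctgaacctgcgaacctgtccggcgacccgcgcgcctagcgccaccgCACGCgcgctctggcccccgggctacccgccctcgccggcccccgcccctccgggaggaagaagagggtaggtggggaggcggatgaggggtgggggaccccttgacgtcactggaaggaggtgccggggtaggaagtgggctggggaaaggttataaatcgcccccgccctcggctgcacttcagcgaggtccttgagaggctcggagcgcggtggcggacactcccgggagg
Vegfb: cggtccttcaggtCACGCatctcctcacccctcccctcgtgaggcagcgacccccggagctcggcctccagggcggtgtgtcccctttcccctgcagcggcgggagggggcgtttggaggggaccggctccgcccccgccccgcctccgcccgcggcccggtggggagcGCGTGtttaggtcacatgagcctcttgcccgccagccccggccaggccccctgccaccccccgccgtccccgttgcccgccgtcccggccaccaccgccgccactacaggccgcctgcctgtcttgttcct
Counted from the start site, GCGTG on either strand began at -131 and -89 in Kdr, at -184 in Flt1 and at -237 and -81 in Vegfb, so it was present in Kdr, which rose at 3 weeks, in Flt1, which passed in no comparison, and in Vegfb, which fell. The letters ACGTG or GCGTG were in 43.8% of 32851 listed promoters and in 4 of the 8 windows of the members, the remaining one being the second of 2 for Vegfa. The Sp1 letters GGGCGG, also searched on both strands, were in 7 of the 8 windows, against 35.7% of all. A match is a description of the letters and not a binding site.

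Of the other VEGF family genes, chosen with earlier results of these data known, 5 were measured: Pgf, Vegfd, Flt4 and the co-receptors Nrp1 and Nrp2. At each PAC time 2 of 5 rose and 0 fell, and 3 of 5 rose for the mean of the times. This list and those below were counted in the main fit only, and their dependence on single arrays was not tested. For this and the lists below, 9.57%, 3.22% and 5.52% of all genes rose at 1, 3 and 6 weeks. Of all genes 8.86%, 2.54% and 3.73% fell at these times, and 12.2% rose and 12.6% fell for the mean. Nrp1 rose by 0.44 ± 0.08 at 1 week (adjusted p = 0.012), 0.41 ± 0.08 at 3 weeks (0.032) and 0.38 ± 0.08 at 6 weeks (0.026). Nrp2 rose by 0.64 ± 0.10 (adjusted p = 0.0074), 0.43 ± 0.10 (0.041) and 0.42 ± 0.10 (0.033). Flt4, the Vegfc receptor, rose for the mean of the times (0.40 ± 0.12, adjusted p = 0.033). The placental growth factor Pgf, another Flt1 ligand, stood at 0.03 ± 0.12 (adjusted p = 0.88). In TAC 0 of 5 passed, with Nrp1 at 0.03 ± 0.08 and Nrp2 at 0.22 ± 0.10.

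The strongest decrease among the 10 genes was in Angpt1, the ligand that activates Tek. Its level was 9.36 and 9.25 in PAC at 1 week, 8.69 and 9.15 at 3 weeks and 8.53 and 8.42 at 6 weeks, against 9.85 and 9.52 in sham RV. All clipped arrays lay below both sham arrays, and the 3 times did not overlap each other, being lower at each later time. Changes were -0.38 ± 0.17 at 1 week (adjusted p = 0.14), -0.77 ± 0.17 at 3 weeks (0.588-fold, adjusted p = 0.037) and -1.21 ± 0.17 at 6 weeks (0.432-fold, adjusted p = 0.0081). At 6 weeks it ranked 74 of 19938 genes by p. Between clipped groups PAC at 6 weeks was lower than PAC at 1 week by -0.83 ± 0.17 (unadjusted p = 0.00068, adjusted p = 0.11), which did not pass. In the left ventricle the level was 8.92 and 8.62 in TAC, against 9.46 and 9.78 in sham LV, again without overlap (-0.85 ± 0.17). The call at 6 weeks ended without PAC 6 week array 2 (-1.16, adjusted p = 0.093), while that for the mean of the times (-0.79 ± 0.14, adjusted p = 0.0075) ended without sham RV array 1 (0.065). At 3 weeks it ended without either PAC 3 week array (-0.54 and -0.99, adjusted p = 0.10 and 0.15), sham RV array (0.13 and 0.11) or TAC array (0.055).

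Angpt2, the destabilising angiopoietin, lay near the middle of all genes (6.65 on average, percentile 48.6) and did not pass anywhere. It was 6.28 and 6.63 in PAC at 1 week, 6.56 and 6.87 at 3 weeks and 6.68 and 6.92 at 6 weeks, against 6.57 and 6.58 in sham RV. The arrays overlapped sham at 1 and 3 weeks and lay above it at 6 weeks (0.22 ± 0.15, interval -0.10 to 0.54). In the left ventricle it was 6.83 and 6.59 in TAC, against 6.6 and 6.66 in sham LV.

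Tek, the angiopoietin receptor of endothelium, had 10.06 and 9.94 in PAC at 1 week, 9.98 and 10.2 at 3 weeks and 9.93 and 9.82 at 6 weeks, against 9.8 and 9.8 in sham RV. All 6 clipped arrays lay above sham by small amounts, with changes of 0.20 ± 0.10 (adjusted p = 0.15), 0.29 ± 0.10 (0.083) and 0.08 ± 0.10 (0.60), none of which passed. At 3 weeks it passed without genes below the median level (0.048) and with a trended and robust prior (0.049). For the mean of the times, 0.19 ± 0.08 (adjusted p = 0.093) passed without PAC 3 week array 1 (0.23, adjusted p = 0.047). Left ventricles had 9.98 and 10.02 in TAC, against 10.02 and 10.05 in sham LV, and so overlapped the clipped right ventricle at 3 weeks.

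The rest of the angiopoietin list held 6 measured genes, of which 2 rose and 1 fell at 1 week, 1 rose at 3 weeks and 0 passed at 6 weeks. The orphan receptor Tie1, a partner of Tek, rose by 0.38 ± 0.08 at 1 week (adjusted p = 0.015) and 0.37 ± 0.08 at 3 weeks (0.033). The secreted protease Adamts1, which can bind VEGF, rose by 0.94 ± 0.27 at 1 week (0.039). Angpt4, a further Tek ligand, fell by 0.49 on the log2 scale at 1 week (SE 0.15, adjusted p = 0.048). The phosphatase Ptprb, which restrains Tek, stood at 0.37 ± 0.12 at 3 weeks (0.080). In TAC 0 of 6 passed.

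Apelin was higher early. Apln had 8.22 and 7.88 in PAC at 1 week, 7.8 and 7.72 at 3 weeks and 7.87 and 7.6 at 6 weeks, against 7.58 and 7.67 in sham RV. The 1 week arrays lay above sham and both later times, although array 2 (7.88) barely exceeded 6 week array 1 (7.87), and the 6 week arrays overlapped sham. The change was 0.43 ± 0.13 at 1 week (1.35-fold, adjusted p = 0.045), then 0.13 ± 0.13 (adjusted p = 0.49) and 0.11 ± 0.13 (0.58). PAC at 3 weeks was lower than PAC at 1 week by -0.29 ± 0.13 (adjusted p = 0.61). The 1 week call is near the threshold. It ended without either array of PAC 1 week (0.17 and 0.058, with changes of 0.26 and 0.60), PAC 3 weeks (0.054), sham RV (0.15 and 0.12), TAC (0.064) or sham LV (0.051), with only the arrays compared (0.11) and with loess scaling (0.12). Apln was 7.86 and 7.86 in TAC, against 7.68 and 7.88 in sham LV (0.08 ± 0.13, interval -0.21 to 0.36).

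Aplnr, the apelin receptor, had the strongest increase of the 10 genes. Its level was 9.5 and 9.44 in PAC at 1 week, 9.41 and 8.64 at 3 weeks and 9.1 and 9.22 at 6 weeks, against 8.45 and 8.39 in sham RV. Both sham RV arrays were the lowest of the series, and the 3 week arrays differed from each other by more than those of any other group (SD 0.54). Changes were 1.05 ± 0.19 at 1 week (2.07-fold, adjusted p = 0.011), 0.61 ± 0.19 at 3 weeks (1.52-fold, adjusted p = 0.073) and 0.74 ± 0.19 at 6 weeks (1.67-fold, adjusted p = 0.037). The low 3 week array, array 2, is the 3 week array with high Bmp10, and without it the 3 week change was 0.99. That change passed, but it rests on a single PAC 3 week array. Bmp10 was also high on the PAC 1 week arrays (8.55 and 10.5), where Aplnr stood at 9.5 and 9.44. The part of the atrial markers in this was not tested. In the left ventricle the level was 9.46 and 9.58 in TAC, against 8.89 and 8.84 in sham LV (0.65 ± 0.19, 1.57-fold), without overlap. The 1 week call ended without PAC 1 week array 2 (1.08, adjusted p = 0.055) or sham RV array 2 (1.02, 0.068), and that for the mean of the times (0.80 ± 0.15, adjusted p = 0.0088) without sham RV array 2 (0.77, 0.084). The 6 week call ended without either array of PAC 6 weeks (0.062 and 0.24), sham RV (0.10 and 0.16), TAC (0.057) or sham LV (0.055), and with loess scaling (0.076).

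Of the other apelin pathway genes 5 were measured, the peptide Apela among them. None rose at any time, and 0, 0 and 1 fell at 1, 3 and 6 weeks. The neutral peptidase Mme, which can cut apelin, fell by 1.03 on the log2 scale at 6 weeks (SE 0.25, adjusted p = 0.034). The angiotensin receptor Agtr1a, a close relative of Aplnr, fell by 0.44 for the mean of the times (SE 0.12, adjusted p = 0.025). Arrb1, an arrestin that binds activated receptors, and Gnai2, a G protein subunit, stood at 0.19 ± 0.09 (0.14) and 0.18 ± 0.08 (0.12) for the mean of the times.

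Endothelial markers were counted beside the receptors. Of 23 endothelial markers, Tie1 among them, 8 rose and 0 fell at 1 week (median change 0.30), 8 rose and 0 fell at 3 weeks (0.37), and 3 rose and 0 fell at 6 weeks (0.20). Of all genes, 9.57%, 3.22% and 5.52% rose at these times. The endothelial mean covers all 23 markers. The mean level of the markers was 8.95 and 9.07 in PAC at 1 week, 9.03 and 9.26 at 3 weeks and 8.94 and 9.02 at 6 weeks, against 8.74 and 8.77 in sham RV. The left ventricle gave 8.9 and 8.9 in TAC, against 8.79 and 8.83 in sham LV. Relative to this mean on the same array, Kdr stood at 2.51 and 2.35 in PAC at 3 weeks, against 2.32 and 2.46 in sham RV, which overlapped. The Kdr arrays of PAC at 1 week (2.29 and 2.05) lay below sham RV and those at 6 weeks (2.47 and 2.55) above it. Flt1 lay below sham RV (0.88 and 0.92) in PAC at 1 week (0.70 and 0.56) and 3 weeks (0.80 and 0.75) and overlapped it at 6 weeks (0.81 and 1.02). Tek overlapped sham RV (1.06 and 1.03) in PAC at 1 week (1.11 and 0.86) and lay below it at 3 weeks (0.95 and 0.94) and 6 weeks (0.99 and 0.80). Aplnr remained higher relative to the markers, at 0.54 and 0.36 in PAC at 1 week and 0.16 and 0.20 at 6 weeks, against -0.29 and -0.38 in sham RV, while the 3 week arrays (0.38 and -0.62) lay on either side of sham. In TAC it was 0.55 and 0.68, against 0.10 and 0.00 in sham LV. No test was made of these relative values.

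**Figure D4:**
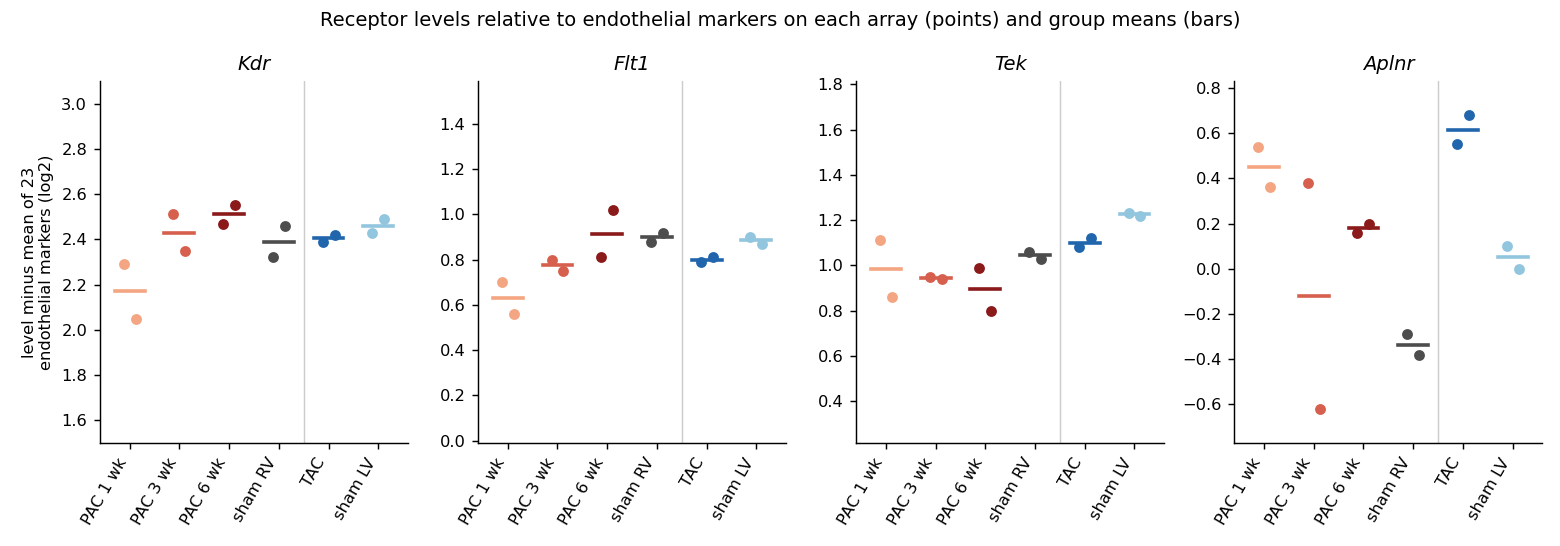
Level of Kdr, Flt1, Tek and Aplnr minus the mean of 23 endothelial markers on the same array (log2), with points for arrays, bars for means of 2 arrays and the same span on every axis. Kdr in PAC at 3 weeks (2.35 and 2.51) overlaps sham RV (2.32 and 2.46), while Aplnr in PAC at 1 and 6 weeks (0.16 to 0.54) lies above sham RV (-0.38 and -0.29).

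Hypoxia genes, which include inducers of Vegfa, were counted beside the members. Of 23 measured, 4 rose and 1 fell at 1 week, 2 rose and 0 fell at 3 weeks, and 6 rose and 1 fell at 6 weeks, with median changes of 0.08, 0.27 and 0.24. Of all genes, 18.4%, 5.76% and 9.25% passed in either direction at these times. Hif1a, the oxygen-regulated factor, rose by 0.78 ± 0.09 at 1 week (adjusted p = 0.0031), 0.62 ± 0.09 at 3 weeks (0.018) and 0.81 ± 0.09 at 6 weeks (0.0053), which is a transcript value and not its activity. The mitophagy gene Bnip3 rose by 0.74 ± 0.13 at 6 weeks (0.015) and stood at -0.02 ± 0.13 at 1 week. The genes that fell were Epas1 at 1 week (-0.36) and Ddit4 at 6 weeks (-0.67), named after their values were seen. Ankrd37 rose by 0.94 ± 0.18 at 6 weeks (0.016) and the glucose transporter Slc2a1 by 0.65 ± 0.16 at 1 week (0.023). In TAC 0 of 23 passed, with Hif1a at 0.15 ± 0.09.

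Of 14 genes on a tip cell and Notch list, 4 rose and 0 fell at 1 week, 2 rose at 3 weeks and 4 rose at 6 weeks. Vessel sprouting itself was not measured. Nid2, a basement membrane protein, rose by 0.97 ± 0.13 at 1 week (adjusted p = 0.0043) and the laminin chain Lama4 by 0.62 ± 0.09 (0.006). At 6 weeks the tip cell proteoglycan Esm1 rose by 1.56 ± 0.36 (0.029) and the Notch ligand Jag1 by 0.50 ± 0.12 (0.035). Of all genes, 9.57%, 3.22% and 5.52% rose at 1, 3 and 6 weeks and 8.86%, 2.54% and 3.73% fell. Other cell type lists moved too. Of 12 pericyte and smooth muscle markers 3, 6 and 5 rose at 1, 3 and 6 weeks and 0 fell, and of 9 fibroblast markers 7, 6 and 2 rose. Of 9 macrophage markers 8 rose at 1 week and 0 at 3 and 6 weeks, and of 7 mitotic markers 7, 2 and 0 rose. Of 6 lymphatic markers, which share Flt4 with the VEGF list, Pdpn rose (0.81, adjusted p = 0.032) and Mmrn1 fell (-3.39, adjusted p = 0.00065) at 1 week and 0 passed at 3 and 6 weeks, both named after their values were seen. Of 4 atrial markers 4, 1 and 0 rose. Of 10 cardiomyocyte markers 0 passed at any single time, and Tnni3 (-0.30) and Ryr2 (-0.24) fell for the mean of the times. The part of these cell types in the members' changes was not tested.

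Aortic constriction in the left ventricle gave no passing member. By limma 0 of 10 passed, where 0% of all genes did, and 2 members, Angpt1 and Aplnr, had an unadjusted p below 0.05 (0.00055 and 0.0053, adjusted 0.98 for both). By p they ranked 7 and 92 of 19938 genes. Here and in the comparisons below, the share of all genes with an unadjusted p below 0.05 was not counted. The median change of the members was 0.04, beside -0.015 for all genes. The arrays did not overlap for 3 members, with Aplnr and Vegfc higher and Angpt1 lower, where 18.2% of all genes lay wholly higher and 23.1% wholly lower.

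The PAC and TAC effects at 3 weeks were compared by the interaction of chamber and obstruction, which subtracts the TAC change from the PAC change. By limma 0 of 10 members and 0% of all genes passed, and 3 members had an unadjusted p below 0.05. These were Kdr (0.40 ± 0.14, adjusted p = 0.37), Vegfb (-0.42 ± 0.15, adjusted p = 0.37) and Tek (0.33 ± 0.13, adjusted p = 0.40). By p they ranked 844, 925 and 1711 of 19938 genes. For Angpt1 the difference was 0.09 ± 0.25 with an interval of -0.46 to 0.63, and for Aplnr -0.05 ± 0.26 with an interval of -0.63 to 0.54. These intervals are wide enough to hold unequal responses.

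Chambers were also compared directly. In sham RV against sham LV 0 of 10 members passed by limma, where 0.411% of all genes did, and 4 had an unadjusted p below 0.05. The difference was 0.34 ± 0.11 for Vegfb (adjusted p = 0.13), -0.24 ± 0.08 for Vegfa (0.13), -0.24 ± 0.10 for Tek (0.20) and -0.45 ± 0.19 for Aplnr (0.21). By p these 4 ranked 1437, 1556, 3004 and 3443 of 19938 genes, so at least 3443 genes lay under that unadjusted threshold. That of Vegfa passed without genes below the median level (0.048), where 871 of 9969 genes did. The arrays lay wholly apart for 7 members, 1 higher and 6 lower, where 29.3% and 26.1% of all genes did. In PAC at 3 weeks against TAC 0 passed, where 0.0201% of all genes did, and 2 members had an unadjusted p below 0.05. These were Kdr (0.27 ± 0.10, adjusted p = 0.61) and Aplnr (-0.49 ± 0.19, adjusted p = 0.63), which ranked 661 and 749 of 19938 genes. The Aplnr difference passed without PAC 3 week array 1 (-0.88, adjusted p = 0.037) and was -0.11 without array 2.

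Among clipped groups 0 of 10 members passed by limma between any 2 times, where 0.0552% of all genes passed for 3 against 1 week, 0.0201% for 6 against 3 weeks and 0.0953% for 6 against 1 week. At an unadjusted p below 0.05 there were 5, 2 and 6 members in these comparisons. The last of them by p were Apln, Tek and Angpt2, which ranked 1447, 914 and 1631 of 19938 genes. The share of all genes under this unadjusted threshold was not counted. With a trended and robust prior Vegfa passed for 6 against 1 week (adjusted p = 0.046). From 1 to 3 weeks Vegfa, Kdr and Flt1 were higher at the later time (0.30, 0.38 and 0.27) and Apln and Aplnr lower (-0.29 and -0.44). From 3 to 6 weeks the values were -0.45 ± 0.17 for Angpt1 and -0.21 ± 0.10 for Tek. At 6 against 1 week Angpt2 (0.34 ± 0.15, adjusted p = 0.49) was in the count with Vegfa, Kdr, Flt1, Angpt1 and Apln.

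For each member the 3 genes with the most similar profile were looked up by Pearson r over the 12 arrays among 9652 genes at or above the median level (9653 for Angpt2), with small RNAs, odorant and pheromone receptors and uncharacterised gene models left out. The profile of Angpt1 was nearest to that of Kcnj3 (r = 0.94), a subunit of the acetylcholine-gated potassium channel, N4bp2 (0.93) and Chrm2 (0.92), the muscarinic receptor of heart muscle. For Aplnr they were the cyclin Ccnd1 (0.92), Btf3l4 (0.92) and Trim72 (0.91), and for Kdr Tcim (0.94), Trak2 (0.93) and the semaphorin receptor Plxna2 (0.93). Flt1 was nearest to Cped1 (0.96), Mgll (0.96), a lipase of endocannabinoid breakdown, and Htra4 (0.92). Vegfa was nearest to Lrrc2 (0.94), Cpxm2 (0.93) and Ppp1r3c (0.93), and Vegfb to Gtf2i (0.97), Gadd45gip1 (0.96) and Mrps15 (0.96), the last of these a mitochondrial ribosomal protein. The closest genes had lower r for Vegfc (0.94 for Atraid, Stk25 and Cep97), Tek (0.92 for Hmcn1), Angpt2 (0.89 for Phlpp2) and Apln (0.86 for Fastkd3) than for Vegfb. With 12 arrays in 6 groups, such r describe the arrays and were not tested.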

How the data were processed

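Ventricles of mice with a clipped pulmonary artery, a constricted aorta or a sham operation were measured on 12 arrays in 6 groups. The deposited values are log2 expression, made by the authors with RMA per the submitters' processing notes, which name Affymetrix Power Tools. Neither its version nor a genome build is given in the sources used here. Array medians lay between 6.32 and 6.4, and no scaling was added in the main fit. Near-equal medians do not exclude a shift that depends on level. The number of arrays limits the precision. Of 35556 probe sets, 21789 were annotated to a single gene. Symbols were updated through gene IDs, and the probe set with the highest mean was kept for the 999 genes with several, which left 19938 genes.

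A mean per group was fitted with limma 3.58.1 (R 4.3.3) over the 12 arrays, with 6 residual and 4.6 prior degrees of freedom and 11 comparisons. Adjustment followed Benjamini and Hochberg. For a single gene with 2 arrays a side, exact permutation can reach no p under 0.33. The code of the fit was run on simulated data with known changes and independent noise for each gene. Such data hold no deviations shared by the genes of an array, so the run cannot judge the fit under them. The members, lists and tests were chosen with earlier results of these data known. The text names all 10 members, up to 4 genes per pathway list (those that passed in most comparisons, then by smallest p) and the 3 genes with the highest r for each member, and says where a gene was named after its values were seen. Alternatives were cyclic loess scaling, averaging probe sets of a gene, dropping genes under the median level of 6.74, a trended and robust prior, fits to the compared arrays alone, the replicate number as a block, each array left out in turn, and PAC 1 week array 2 left out with sham LV array 2.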

Additional observations from a re-analysis of the deposited data

How the results depend on the processing

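The counts of passing members rest on few arrays. In PAC at 1 week 3 members passed, 1 with only the arrays compared, 0 without PAC 1 week array 2 and sham LV array 2 together, and 0 to 3 when each array was left out in turn. In PAC at 3 weeks 3 passed, 1 with only the arrays compared and 0 to 3 with an array left out. In PAC at 6 weeks 3 passed, 5 without genes below the median level, 5 with a trended and robust prior, and 0 to 4 with an array left out, and for the mean of the 3 times 4 passed, or 1 to 5. The count of 0 came without array 2 of PAC 1 week or sham RV at 1 week, without any sham RV or TAC array at 3 weeks and without PAC 6 week array 2 at 6 weeks, and the count of 1 for the mean of the times came without either sham RV array. At 0 in the main analysis, the count was 1 for PAC at 6 against 1 week with a trended and robust prior (Vegfa), 1 for sham RV against sham LV without genes below the median level (Vegfa), and 0 to 1 for PAC at 3 weeks against TAC with an array left out. With cyclic loess scaling 2 members passed at each PAC time against sham RV, where 2174, 535 and 1279 of all genes did. For the mean of the times 3 members passed with it, where 3045 of all genes did. The number of all genes that passed moved too. At 1 week it was 3675, against 89 with only the arrays compared and 167 without both arrays. At 3 weeks it was 1148, against 3 without PAC 3 week array 2 or sham RV array 2, and at 6 weeks 1844, against 3 without PAC 6 week array 2. Why the counts moved was not tested, and neither was the part of fewer arrays or genes in a fit. The pathway and marker lists were not counted in these alternatives, so how far their counts rest on single arrays is not known.

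Deviations of same-numbered arrays had r between -0.24 and 0.37 over 15 pairs of groups. Clipped groups correlated with each other (0.26, 0.37 and 0.26) but not with sham RV (0.02, -0.09 and -0.07), and with 2 numbers and no label of a shared batch the numbers were not taken as pairs. With the replicate number as a block 3, 3 and 4 members passed at 1, 3 and 6 weeks, 4 for the mean of the times and 0 in the 7 other comparisons, and the block changed no call but that of Kdr at 6 weeks. Of 21 changes that passed in at least 1 setting, 0 turned sign in any. TAC gave 0 members in all settings. Angpt2 lies below the median level and was not measured where such genes were left out. With 2 arrays a group, a miss of the threshold does not show that a gene did not differ.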
